A study of Mus musculus with 4 samples.

Results

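Complement components, regulators and receptors were followed in mouse prefrontal cortex through 9 named genes: the C1q chains C1qa, C1qb and C1qc, the components C3 and C4b, the inhibitors Serping1 and Cd59a, and the receptors C3ar1 and C5ar1. Members were taken by name, as every probe set (the short probes of the array that together read 1 transcript) to which the platform annotation gives exactly 1 gene symbol, that symbol being one of the 9. The rule found 13 probe sets of 7 genes, among 45037 probe sets tested and 18193 genes named in the same way. C3 had no probe set under a single symbol and was not analysed here. The probe set that names C4b also names the near-identical C4a, so C4b was not analysed either.

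The arrays (Affymetrix MOE430 2.0) held total RNA from mice exposed to repeated social threat, labelled HighThreat, in 2 pools, and from control mice, labelled LowThreat, in 2 pools. Each of the 4 pools combined 5 mice. All groups were whole prefrontal cortex tissue, and neither strain, sex, age nor the form and length of the threat is given in the labels. Since animals were pooled, p-values here measure how 4 pools vary, not how mice vary, and part of that may be technical.

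Complement is a cascade of blood and tissue proteins that tags cells and debris for removal. In the classical pathway, C1q, built from A, B and C chains, binds a target and activates the proteases bound to it, which cut C4 and C2, and the fragments of these form the enzyme that cuts C3. Small fragments released on the way act on the receptors C3ar1 and C5ar1, and the terminal proteins can form a pore in the membrane. In brain, C1q is made chiefly by microglia and is known for its part in the removal of synapses during development.

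The C1q genes lay lower in the threat pools, and their upstream sequences are shown because the 3 chains lay lower together and C1qb, C1qc and C1qa stand in this order on chromosome 4 with 0 other genes listed between them. The RefSeq table (GRCm38.p6) held a window for C1qb, at chr4:136886201-136886450, and for C1qc, at chr4:136892915-136893164. Both are the 250 bases before the start that the table uses, and the last 22 bases of the C1qc window lie inside the gene as listed. They are read 5′ to 3′ on the minus strand, with each match to GAGGAA, the core of the motif bound by the myeloid factor PU.1, in capitals on either strand:
C1qb: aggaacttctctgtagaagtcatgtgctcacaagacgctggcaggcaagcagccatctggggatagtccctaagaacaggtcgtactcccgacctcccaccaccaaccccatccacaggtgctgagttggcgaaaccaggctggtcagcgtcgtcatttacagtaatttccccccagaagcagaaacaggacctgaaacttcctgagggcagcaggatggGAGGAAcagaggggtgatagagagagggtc
C1qc: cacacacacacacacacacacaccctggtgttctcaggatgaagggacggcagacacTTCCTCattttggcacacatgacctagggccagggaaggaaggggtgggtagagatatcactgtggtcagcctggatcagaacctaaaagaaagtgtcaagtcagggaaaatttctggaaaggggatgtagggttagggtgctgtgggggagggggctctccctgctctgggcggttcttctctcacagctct
The match begins 30 bases before that start in C1qb, on the strand of the gene, and 193 bases before it in C1qc, on the opposite strand. Of the 32851 promoter windows in the table, cut to the same length, 23.3% hold this motif on either strand. Among the 6 of the 9 genes with a window in the table, Cd59a also holds it and C3, C3ar1 and C5ar1 do not.

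The comparison asked which complement transcripts differ between threatened and control mice. Of the 13 probe sets, 12 lay above the background of the array. All 12 had a lower mean in the threat pools, by 0.05 to 0.50 on the log2 scale, and both threat pools lay below both control pools in 9 of them. Over the whole array, 46.0% of probe sets had a lower mean in the threat pools. The 12 are not independent, since C1qb, Cd59a and C3ar1 each had more than 1 of them. None passed the test: their adjusted p-values ran from 0.423 to 0.937 in limma's moderated test over all 45037 probe sets. Nor did any other probe set of the array, of which 0% passed a threshold of 0.05 (the smallest adjusted p was 0.278, while 4774 had an unadjusted p under 0.05). With 1 probe set per gene (the one with the highest mean), 5 of the 7 genes had threat pools below control pools and 0 had them above. Over the whole array, 19.4% of probe sets had threat pools below control pools and 23.9% had them above. Among probe sets above the median level of the array those shares were 16.8% and 32.3%. The median log2 difference of the 7 genes was -0.19, against 0.02 for all probe sets. None of the 13 reached a 1.5-fold difference with groups that did not overlap, as 0.830% of all probe sets did in either direction and 0.719% with threat lower. An exact permutation test of 2 pools against 2 cannot go below a p of 0.333, so none was made.

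**Figure D1:**
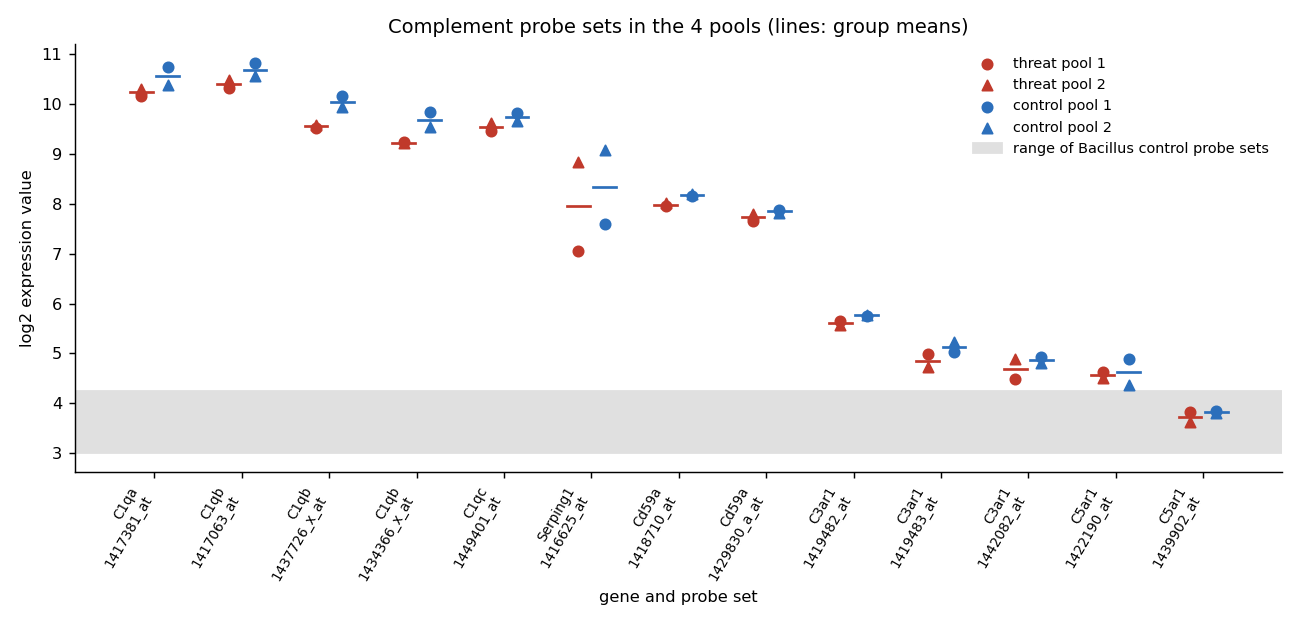
Log2 expression value (vertical axis) of the 13 complement probe sets (horizontal axis) in each pool, threat in red left of control in blue, with short lines at the group means and the range of the Bacillus control probe sets in grey. C1q and Cd59a pools of 1 group lie 0.35 or less apart, Serping1 pools of 1 group lie 1.49 or more apart, and 1 C5ar1 probe set lies wholly inside the grey band.

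The level of each probe set was set against 27 control probe sets for Bacillus genes, which match no mouse transcript and ranged from 3.01 to 4.25 over the 4 arrays. In 12 of the 13 probe sets every pool lay above 4.25. The lowest pool exceeded it by 4.96 or more for the C1q chains, by 2.80 for Serping1 and by 3.41 or more for Cd59a. For C3ar1 the margin was between 0.23 and 1.32, for the first C5ar1 probe set it was 0.11, and the second C5ar1 probe set was below 4.25 in all pools. Values this close to the controls may understate a difference.

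C1qa, the A chain of C1q, measured 10.17 and 10.31 (log2) in threat pools 1 and 2, against 10.74 and 10.39 in control pools 1 and 2. The groups did not overlap, but the nearest pools were 0.08 apart while the control pools differed by 0.35. The log2 difference was -0.33 ± 0.14 (SE; 95% interval -0.68 to 0.03), or 79.8% of control, and the adjusted p from limma was 0.490. Leaving out control pool 1 left -0.15, and leaving out control pool 2 gave -0.50.

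C1qb, the B chain, was read by 3 probe sets, and in each of them the threat pools lay below the control pools. The probe set with the highest mean, 1417063_at, measured 10.33 and 10.48 in the threat pools and 10.82 and 10.57 in the control pools, a log2 difference of -0.29 ± 0.12 (95% interval -0.60 to 0.02). Both others carry the suffix _x_at, by which the manufacturer marks probes that may also match other transcripts. 1437726_x_at measured 9.53 and 9.58 in the threat pools, against 10.16 and 9.95 in the control pools. Its difference of -0.50 ± 0.11 (95% interval -0.77 to -0.22; adjusted p = 0.423 in limma's test) was the largest among the 13, and the nearest pools of the groups were 0.36 apart, more than the gap within either group. 1434366_x_at measured 9.25 and 9.22 in the threat pools and 9.84 and 9.54 in the control pools, a difference of -0.45 ± 0.13 (95% interval -0.77 to -0.14). These 2 probe sets were the only ones of the 13 with an unadjusted p under 0.05 in limma's test, which 5.73% of all probe sets had with threat lower. Leaving out 1 pool at a time kept the first between -0.41 and -0.17, the second between -0.61 and -0.39 and the third between -0.61 and -0.30.

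C1qc, the C chain, measured 9.47 and 9.63 in the threat pools, against 9.82 and 9.66 in the control pools. Threat pool 2 and control pool 2 were 0.03 apart, less than the 0.16 between the threat pools. The log2 difference was -0.19 ± 0.11 (95% interval -0.47 to 0.08; adjusted p = 0.551 in limma's test). It was -0.11 without threat pool 1 and -0.12 without control pool 1. For all 3 chains control pool 1 was the highest and threat pool 1 the lowest, by the probe set with the highest mean.

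**Figure D2:**
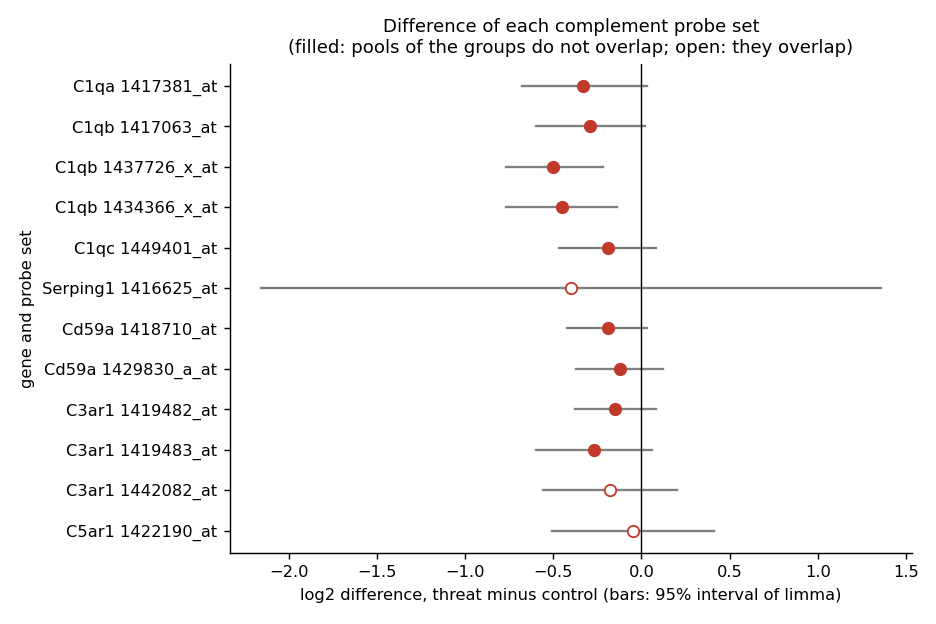
Log2 difference, threat minus control (horizontal axis), of each complement probe set above background (vertical axis), with the 95% interval of limma's fit as a bar and filled points where the pools of the groups do not overlap. All 12 points lie below 0, the interval of 2 C1qb probe sets lies wholly below 0, and that of Serping1 runs from -2.16 to 1.36.

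Some microglial marker genes were lower in the threat pools, and the median of the list was closer to 0 than that of C1q. Of 17 measured genes on a list of microglia markers, 14 lay below 0, against 46.0% of all probe sets. Threat pools lay below control pools in 7, against 19.4% of all probe sets, and above in 0, while 10 overlapped. The median log2 difference was -0.08, against -0.29 for the C1q chains, and 0 markers were at the level of the Bacillus controls. The summed linear signal of the markers was 11566 and 12817 in the threat pools, against 13713 and 13196 in the control pools. Ctss, a lysosomal protease, was at -0.27 ± 0.11, and Sall1, a microglial transcription factor, at -0.42 ± 0.13. Laptm5, a lysosomal membrane protein, was at -0.23 ± 0.11 by its probe set of highest mean, which is marked _x_at, while another of its probe sets, without such a mark, stood at 0.49, higher in threat. Picked after their values were seen, Tyrobp, the adaptor of Trem2, was at -0.20 ± 0.11, and P2ry12 and Tmem119, which mark resting microglia, were at -0.01 ± 0.09 and 0.04 ± 0.09. Leaving out threat pool 1 brought Ctss to -0.17 and Laptm5 to -0.12, and leaving out control pool 1 brought Tyrobp to -0.10. No marker passed limma's test over all probe sets. Averaged over genes after centring each on its own mean, the C1q chains stood at -0.21 and -0.06 in the threat pools and at 0.26 and 0.01 in the control pools, where the microglia list stood at -0.10, -0.01, 0.09 and 0.02 in the same order of pools. C1q minus the microglia list was therefore -0.11 and -0.05 in the threat pools and 0.17 and -0.01 in the control pools, so that control pool 1 stood apart and the other 3 lay within 0.10 of each other. In tissue RNA, fewer microglia and less C1q RNA per microglial cell cannot be told apart.

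Oligodendrocyte markers showed a larger difference with the same order of pools. All 11 measured genes had threat pools below control pools, with a median of -0.97 and a summed linear signal of 11703 and 14206 in the threat pools, against 26112 and 20520 in the control pools. None was at the level of the Bacillus controls. Beside the counts of this and the following lists, 46.0% of all probe sets lay below 0 and 19.4% had threat pools below control pools. Astrocyte markers had 6 of 12 genes with threat pools below control pools and a median of -0.11, with 0 at the level of the controls and a summed signal of 34683 and 38437 in the threat pools, against 40515 and 40356 in the control pools. The choroid plexus and ependyma list, from tissue lining the ventricles, had a sum highest in control pool 1 and lowest in threat pool 1. Ttr, Clic6 and Rarres2 had these extremes, as C1q did. Otx2, Ccdc153, Tmem212 and Foxj1 were lowest in threat pool 2, and Folr1 and Kcnj13 were highest in control pool 2. Kl was highest in threat pool 2. Of 10 measured genes 9 lay below 0 and 7 had threat pools below control pools, with a median of -0.47 and 1 gene, Otx2, at the level of the Bacillus controls. Their summed signal was 479 and 608 in the threat pools, against 1166 and 690 in the control pools. Ttr, the thyroid hormone carrier of the choroid plexus, measured 6.15 and 6.18 in the threat pools, against 9.05 and 6.48 in the control pools. The sum of the blood and neutrophil markers was also highest in control pool 1. All 8 measured genes lay below 0 and 4 had threat pools below control pools, with a median of -0.15 and 1 gene, Slc4a1, at the level of the controls. Their summed signal was 441 and 377 in the threat pools, against 707 and 508 in the control pools. S100a8, a neutrophil calcium-binding protein, measured 6.17 and 5.90 in the threat pools, against 7.62 and 6.49 in the control pools. The part of these 5 lists in the C1q result was not tested.

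The genes whose values over the 4 arrays were most like the mean C1q profile were sought among 11925 genes outside the 9, each read by the probe set of highest mean where that lay above the array median. By root mean square distance between centred log2 values, the nearest were Acsl3 (0.012), Gltp (0.018), Sparc (0.019), Tbc1d16 (0.023) and Kat2b (0.025). The probe sets of Acsl3, Gltp and Kat2b are marked _s_at. Without probe sets ending in _x_at or _s_at, the log2 difference was 0.03 for Acsl3 and 0.36 for Kat2b. Of the microglia markers, Tyrobp ranked 67 with a distance of 0.054, Ctss 72 with 0.056 and Aif1 170 with 0.072. The differences of the 5 nearest genes ran from -0.31 to -0.25 with all pools and from -0.20 to -0.15 without control pool 1. Likeness over 4 arrays is a description of these pools only.

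Serping1, the C1 inhibitor, which inactivates the proteases of C1, differed more between pools of 1 group than between groups. It measured 7.06 and 8.84 in threat pools 1 and 2, against 7.60 and 9.09 in control pools 1 and 2. Pool 2 was the higher one in each group, by 1.78 in threat and 1.49 in control, and the groups overlapped. The log2 difference of -0.40 ± 0.70 had a 95% interval of -2.16 to 1.36 and limma gave an adjusted p of 0.852. Its direction depended on single pools: it was 0.49 without threat pool 1 and 0.35 without control pool 2, against -1.29 without threat pool 2 and -1.15 without control pool 1. Within each pool number the threat pool was the lower one. With the pool number as a replicate block, limma gave the same difference an adjusted p of 0.368.

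Summed over each list, markers of tissue at the border of the brain had the same order of pools as Serping1, though several of their genes did not. The 14 measured genes of the meninges and mural list (fibroblasts of the brain coverings, smooth muscle and pericytes) had a summed linear signal of 4446 and 7442 in the threat pools, against 6162 and 11380 in the control pools. Of these genes, 13 lay below 0 in threat, 5 had separate groups with threat lower, and 0 were at the level of the Bacillus controls. Its members with the largest differences were the smooth muscle genes Acta2 (-1.83), Tagln (-1.44) and Myh11 (-1.24). Without control pool 2 they were at -1.19, -0.81 and -0.72. In each of them threat pool 2 lay below control pool 1, unlike in Serping1. The value of Acta2 comes from a probe set marked _s_at, shared among transcripts, and its other probe sets, near the level of the Bacillus controls, were at -0.23 and -0.14. The 9 genes of the brain border macrophage list summed to 674 and 1099 in the threat pools, against 871 and 1323 in the control pools. Of these, 8 lay below 0, 2 had separate groups with threat lower and 0 were at the level of the controls, led by Lyz2 (-0.58), Folr2 (-0.55) and Ms4a7 (-0.43). Without threat pool 1, Lyz2 was at -0.22 and Ms4a7 at -0.14, and Ms4a7 was at -0.10 without control pool 2. In Lyz2 and Folr2, but not in Ms4a7, threat pool 2 lay below control pool 1. The 9 measured endothelial genes summed to 1519 and 1937 in the threat pools, against 1739 and 2174 in the control pools, with 7 below 0, 4 separate with threat lower and 0 at the level of the controls. Beside these counts, 46.0% of all probe sets lay below 0 and 19.4% had separate groups with threat lower. The part of these marker lists in the values of Serping1 was not tested.

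**Figure D3:**
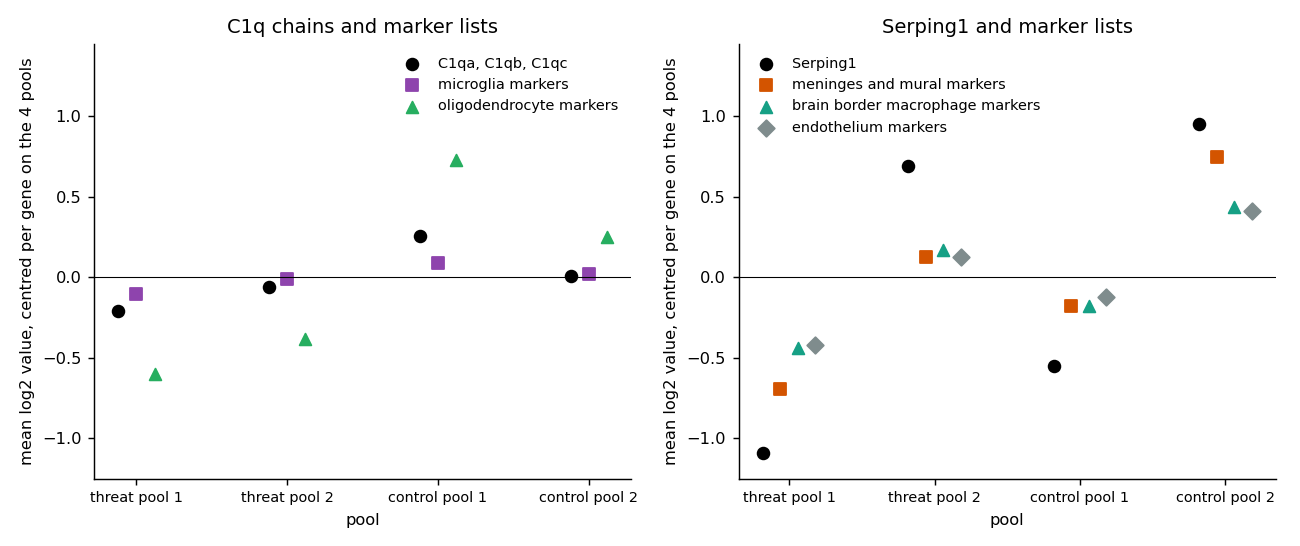
Mean log2 value per pool after centring each gene on its 4 pools (vertical axis), for the C1q chains beside microglia and oligodendrocyte markers (left) and for Serping1 beside meningeal, macrophage and endothelial markers (right). The C1q chains run between -0.21 and 0.26 with control pool 1 highest, and Serping1 runs between -1.09 and 0.95 with pool 2 the higher of each group.

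Cd59a, a membrane protein that blocks assembly of the terminal pore, showed a small difference with little spread between pools. Its first probe set, 1418710_at, measured 7.95 and 8.01 in the threat pools, against 8.15 and 8.20 in the control pools. The nearest pools of the groups were 0.14 apart, more than the 0.06 between the threat pools and the 0.05 between the control pools. The log2 difference was -0.19 ± 0.09 (95% interval -0.42 to 0.03), or 87.4% of control, and limma gave an adjusted p of 0.502. It stayed between -0.22 and -0.17 when any 1 pool was left out. The second probe set, 1429830_a_at, measured 7.66 and 7.79 in the threat pools and 7.88 and 7.82 in the control pools. Its groups were 0.03 apart and its difference was -0.12 ± 0.10, with -0.06 left without threat pool 1.

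C3ar1, the receptor for the fragment released from C3, was read by 3 probe sets at low level. In 1419482_at the threat pools measured 5.66 and 5.58, against 5.76 and 5.78 in the control pools, a log2 difference of -0.15 ± 0.09 (95% interval -0.38 to 0.08). In 1419483_at the threat pools measured 4.98 and 4.72, against 5.02 and 5.22 in the control pools, a difference of -0.27 ± 0.13. The groups did not overlap in either, the nearest pools were 0.10 and 0.04 apart, and the second difference was -0.14 without threat pool 2. The other, 1442082_at, measured 4.49 and 4.88 in the threat pools and 4.92 and 4.81 in the control pools. Here the groups overlapped, and the difference of -0.18 ± 0.15 became 0.02 without threat pool 1. The adjusted p of the 3 lay between 0.510 and 0.668 in limma's test.

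C5ar1, the receptor for the fragment released from C5, gave no detectable difference at these levels. Its first probe set, 1422190_at, measured 4.63 and 4.51 in the threat pools, against 4.88 and 4.36 in the control pools, so that the control pools enclosed the threat pools. The log2 difference was -0.05 ± 0.18, with a 95% interval of -0.51 to 0.41 that leaves room for a difference of that size in either direction. The second probe set lay between 3.62 and 3.85 in all 4 pools, within the range of the Bacillus controls, and no fold is given for it.

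The rest of the complement system showed no common direction. Of 56 further complement genes listed, 46 had a probe set under 1 symbol, and 9 of these were at or below 4.25 in all pools. Of the 37 others, 8 had threat pools below control pools, 8 had them above, and the median log2 difference was -0.01. Over the whole array, 19.4% of probe sets had threat pools below control pools and 23.9% had them above. None of the 46 passed limma's test.

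Among genes listed here under the start of the classical and lectin pathways, Colec12, a scavenger collectin, had the largest difference at -0.45 ± 0.27. It measured 5.50 and 5.96 in the threat pools, against 5.82 and 6.54 in the control pools, with overlap and with pool 2 higher in each group, as for Serping1. Its difference was -0.09 without control pool 2 and -0.81 without control pool 1. Fcna, a ficolin, measured 4.66 and 4.86 in the threat pools and 5.10 and 4.99 in the control pools (-0.29 ± 0.11), without overlap and with -0.19 left without threat pool 1. In the alternative pathway Cfb, factor B, was at -0.15 ± 0.09. Its pools lay between 4.30 and 4.51, close to the highest Bacillus value of 4.25. The terminal genes Hc, C6, C8a, C8b, C8g and C9 all overlapped between groups, and C8a and C9 were at the level of the Bacillus controls. C6 had 3 of its 4 pools at that level.

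Inhibitors divided by gene. Vtn, vitronectin, which binds the terminal complex, measured 9.69 and 10.28 in the threat pools, against 9.84 and 10.76 in the control pools, again with pool 2 higher in each group, and its difference of -0.32 ± 0.34 turned to 0.14 without control pool 2. Genes of the Csmd family, membrane proteins with complement control domains that neurons express, lay higher in threat. Csmd2 measured 8.11 and 8.19 in the threat pools, against 7.74 and 7.75 in the control pools, a difference of 0.40 ± 0.09 (adjusted p = 0.423 in limma's test). Csmd3 was at 0.46 ± 0.12 by the probe set of highest mean and at 0.42 by the next, while another, at a low level, was at -0.15. Csmd1 was at 0.37 ± 0.15, and its 3 other probe sets were at 0.23, 0.11 and -0.27. It was 0.20 without control pool 1 and 0.24 without threat pool 2. Averaged over the probe sets of a gene, Csmd1 was at 0.11 and Csmd3 at 0.24. The 12 genes of a neuron marker list, 0 of them at the level of the Bacillus controls, had a median of -0.03, with 2 above and 6 below without overlap and a summed signal of 53837 and 54819 in the threat pools, against 53839 and 58008 in the control pools, whose part in the Csmd values was not tested. Of 17 measured inhibitors 6 had threat pools above control pools, against 23.9% of all probe sets and 32.3% of those above the median level of the array, and 3 had them below, against 19.4% and 16.8%.

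Among receptors, Itgb2, the beta chain of complement receptor 3, measured 6.46 and 6.70 in the threat pools, against 6.90 and 6.83 in the control pools (-0.29 ± 0.12), without overlap and with -0.17 left without threat pool 1. Its partner Itgam was at -0.02 ± 0.13 with overlapping pools, a gene chosen after its value was seen. Cd93, first described as a C1q receptor, was at -0.38 ± 0.23 with overlap by its probe set of highest mean, and at -0.12 without threat pool 1 and -0.13 without control pool 2. Its 4 other probe sets, at lower levels, were at -0.23, 0.12, 0.16 and -0.17. Calr and C1qbp, which bind C1q, were at -0.22 ± 0.09 and 0.21 ± 0.09, both without overlap. The C1qbp value comes from a probe set marked _x_at, and its other probe set was at 0.12. For the 9 measured receptor genes together the median was -0.02.

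**Figure D4:**
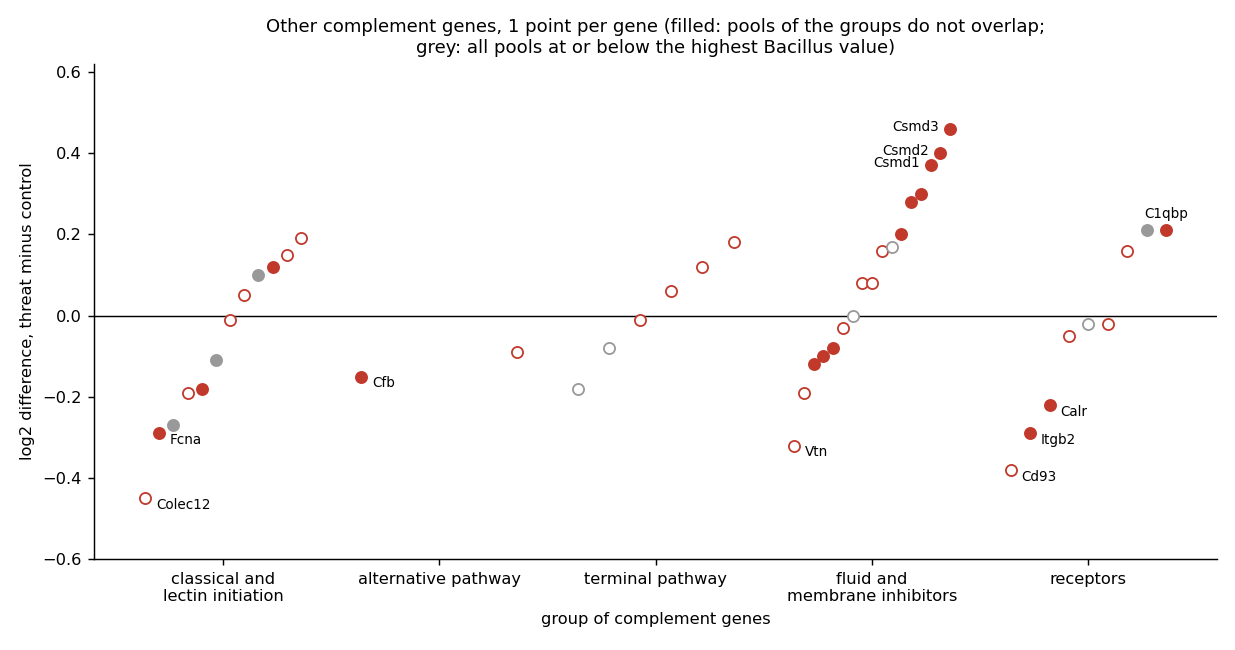
Log2 difference, threat minus control (vertical axis), of the 46 other complement genes in 5 groups (horizontal axis), filled where the pools of the groups do not overlap and grey where all pools are at or below the highest Bacillus value. Values run from -0.45 for Colec12 to 0.46 for Csmd3 and fall on both sides of 0 in 4 of the 5 groups.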

How the data were processed

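The authors deposited a table of log2 values with a row per probe set and a column per array. RMA, which as usually run corrects background, brings arrays to a common distribution and summarises probes, is named per the submitters' processing notes. Version and settings: not given in the sources used here. A shift shared by most transcripts would be hidden by it. No detection calls were used, so levels were read against Bacillus control probe sets, and the number of arrays limits the precision.

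From the 45101 probe sets, 64 control probe sets were left out. Symbols came from the platform annotation. Threat was compared with control in R 4.3.3 by limma 3.58.1 (a linear model with moderated variances, 2-sided, Benjamini-Hochberg over 45037 probe sets, 2 residual degrees of freedom) and tested on simulated data. The array correlations were 0.9942 to 0.9961. The members and lists were chosen with earlier results of these data known. Named genes were all members, up to 4 of each complement group and up to 3 of each marker list by size of difference, and the 5 nearest to C1q. Tyrobp, P2ry12, Tmem119, Itgam and Aif1 were named outside this rule, as were all the terminal genes. So were genes at the Bacillus level and the choroid plexus and ependyma genes given for their order of pools. Alternatives were a block, 2 scalings, an intensity trend, 2 filters, gene means, a lower fold threshold and leaving out each pool. Summed linear signals are sums of 2 to the power of the log2 value.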

Additional observations from a re-analysis of the deposited data

How the results depend on the processing

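In limma's fit no complement probe set came under an adjusted p of 0.05 with any setting tried, and 2 of 13 had an unadjusted p under 0.05 with all pools. The count of genes with threat pools below control pools was 5 under every setting with all pools, and 5 to 6 when 1 pool was left out. The median difference of the genes ran from -0.27 to -0.16. The block and the intensity trend could change neither that count nor this median, as they leave pool values and differences unchanged. Counts of genes with threat pools above control pools ran from 0 to 1 over left-out pools, as did counts of genes whose probe sets differ in sign (the C5ar1 probe set at background included). Over all probe sets, those past 1.5-fold with separate groups numbered 374, against 3186 at a lower threshold of 0.32 on the log2 scale and 673 to 818 with 1 pool left out and 3 remaining. The share of all probe sets with threat below control was then 31.1% to 35.2%.

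With 1 pool left out, Serping1 ran from -1.29 to 0.49 (0.35 without control pool 2), the C3ar1 probe set with overlapping groups from -0.38 to 0.02 and the first C5ar1 probe set from -0.31 to 0.21 (0.01 without threat pool 2). C1qc ran from -0.27 to -0.11. Vtn ran from -0.77 to 0.14, Aif1 from -0.30 to 0.02, Colec12 from -0.81 to -0.09, Cd93 from -0.63 to -0.12, Acta2 from -2.48 to -1.19, Tagln from -2.07 to -0.81, Myh11 from -1.75 to -0.72, Lyz2 from -0.95 to -0.22, Ms4a7 from -0.75 to -0.10, Csmd1 from 0.20 to 0.53, Itgb2 from -0.41 to -0.17, Fcna from -0.39 to -0.19, Ctss from -0.36 to -0.17, Tyrobp from -0.29 to -0.10, Laptm5 from -0.34 to -0.12 and P2ry12 from -0.04 to 0.03. Tmem119 was at -0.03 with cyclic loess, and P2ry12 at 0.03 with median centring and 0.01 without control pool 2. Without probe sets ending in _x_at or _s_at, Acsl3 was at 0.03, Kat2b at 0.36, Laptm5 at 0.49, C1qbp at 0.12 and Acta2 at -0.23. Averaged over the probe sets of each gene, Kat2b was at 0.02, Laptm5 at 0.04, Acta2 at -0.73, Myh11 at -0.68, Ms4a7 at -0.22, Csmd1 at 0.11, Csmd3 at 0.24 and Cd93 at -0.10. The causes were not tested.

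The pool number is only a number in the labels. Differences between pools 1 and 2 correlated at 0.33 between the groups over all probe sets. With the pool number as a replicate block, the count of probe sets under an adjusted p of 0.05 in limma was 0. The count of genes with threat lower, 5, and the median difference, -0.19, cannot change with this block. Each group holds both pool numbers, so the block leaves pool values and differences as they were.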
